A study of Homo sapiens with 6 samples.

Results

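The genes described here encode the subunits of oxidative phosphorylation, in the human melanoma cell line A375 with and without RIPK4. Nuclear subunit genes were taken by name (NDUFA, NDUFB, NDUFC, NDUFS and NDUFV with a number, SDHA to SDHD, UQCR, COX4 to COX8, CYC1 and ATP5) where the deposited table lists them as mRNA, and the subunit genes of the mitochondrial genome were added. This gave 81 of the 20851 names in the table, 68 from the nuclear genome (64 different genes, since some are listed again as a copy on a scaffold) and 13 from the mitochondrial genome. A further 18 subunit names carry another transcript type in the table and were kept apart. COX4I2, COX6A2, COX6B2, COX7A1 and COX8C were not analysed here.

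Oxidative phosphorylation makes ATP at the inner membrane of mitochondria. Complexes I and II feed electrons from NADH and succinate into the chain, complexes III and IV pass them on to oxygen, and complex V, the ATP synthase, uses the proton gradient so formed. Complexes I, III, IV and V are built from subunits of both genomes, which have to be made and assembled together, while complex II is wholly nuclear. Melanomas differ widely in how far they rely on this pathway, which in the melanocyte lineage is linked to the transcription factor MITF through PGC-1alpha.

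RNA-seq was carried out on 3 replicates of A375 RIPK4.KO cells and 3 of A375 neg cells. The RIPK4.KO cells are a single clone (clone #1) of A375 in which RIPK4, a serine/threonine kinase, was cut with CRISPR/Cas9, and the A375 neg cells, whose labels call them a GFP control, carry a non-targeting guide in its place. All 6 libraries thus come from A375 cells that went through CRISPR/Cas9 lentiviral transduction, and knockout and clone cannot be told apart in this comparison. Below, the A375 neg libraries are called controls and the A375 RIPK4.KO libraries knockout libraries. The study describes the replicates as independent and biological, without saying what was repeated for each, so p-values measure the spread between these libraries.

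The libraries held from 21882863 to 26694140 counts on genes. RIPK4 itself had 319, 368 and 404 raw counts in the controls and 42, 51 and 61 in the knockout, a log2 fold change of -2.69 ± 0.17 (SE, n = 3 per group). The melanocyte lineage markers, of which 6 of 9 are listed, summed to 397 to 426 CPM, a count set to 1 common depth, in the controls and 328 to 369 in the knockout, with SOX10 the most abundant. Keratinocyte markers (3 of 5 listed) summed to 71.4 to 75.5 against 53.8 to 63.3 CPM, fibroblast markers (5 of 7 listed) to 10.9 to 12.6 against 9.73 to 11.0, and leukocyte markers (4 of 7 listed, 1 of them at 3 counts or fewer in every library) to 1.64 to 2.05 against 0 to 0.823. The part of these shifts in the results below was not tested.

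One library stood apart for the nuclear subunit genes, and for the mitochondrial ribosomal protein genes as well. A375 RIPK4.KO replicate 2 held the highest normalized count of the knockout libraries for 57 of the 64 nuclear members tested, or 89.1%. The share was 41.0% of all genes tested and 64.9% of the tested genes shorter than 1000 bases. For mitochondrial ribosomal protein genes, of a median length of 1126 bases, it was 51 of 57, or 89.5%. Among the 56 nuclear members with a single copy and a control mean of at least 50 normalized counts, it was 54, or 96.4%. Relative to the A375 neg mean, the median of these 56 genes on the log2 scale was -0.16 in replicate 1, 0.25 in replicate 2 and -0.08 in replicate 3 of A375 RIPK4.KO, and lay between -0.0088 and 0.013 in the control libraries. For the mitochondrial ribosomal protein genes with a single copy, the medians in the same 3 knockout libraries were -0.05, 0.25 and -0.03. The medians over all genes tested with a control mean of at least 50 normalized counts lay between -0.02 and 0.0018 in every library. Subunit transcripts are short, with a median length of 750 bases for the nuclear members tested against 2512 bases for all genes, and the slope of log2 CPM on log2 length was 0.274 in replicate 2 against 0.355 and 0.355 in the other knockout libraries and 0.321 to 0.345 in the controls. The part of transcript length in the position of replicate 2 was not tested. The counts of called nuclear members, and those of the further gene lists at the end, are therefore also given without this library.

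**Figure D1:**
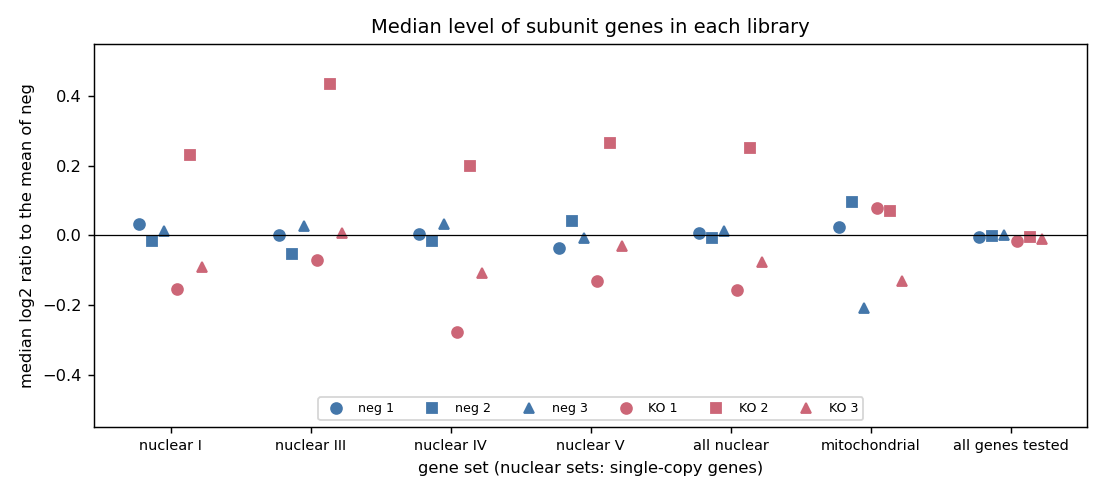
Median log2 ratio to the mean of the A375 neg libraries (y axis) for sets of subunit genes and for all genes tested (x axis), 1 point per library, blue for A375 neg and red for A375 RIPK4.KO. The nuclear sets and the set of all genes tested hold only genes with a control mean of at least 50 normalized counts. RIPK4.KO replicate 2 (red squares) lies above every other library in each nuclear set, from 0.20 for complex IV to 0.44 for complex III, and the mitochondrially encoded set and the set of all genes do not show this.

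Few nuclear subunit genes passed the test. Of the 68 nuclear members, 64 passed edgeR's filter on low counts and were tested, of which 2 were higher in the knockout, 1 was lower and 61 were not called, at an adjusted p under 0.05. Over all 14443 genes tested the same rule called 16.6%, with 8.4% higher and 8.24% lower. The genes that rose were ATP5F1D and ATP5F1B, and the gene that fell was COX7B2. In bulk RNA, a change in how many cells carry a transcript and a change in its amount per cell cannot be told apart. The median log2 fold change of the nuclear members was 0.02, against -0.0046 for all genes tested, with 34 members above 0 and 30 below. In 3 members the knockout libraries all lay above the control libraries and in 1 all lay below, where 36.5% of all genes tested showed no overlap of the groups. At a minimum change of 1.5-fold, ATP5F1D and COX7B2 were left, and the background was 9.04%. With no adjustment, 8 members, or 12.5%, had a p under 0.05, against 30.0% of all genes tested. Besides ATP5F1D, ATP5F1B, COX7B2 and CYC1, these were NDUFS1, UQCRC2 and the scaffold copies of NDUFS3 and NDUFA6. In each of the latter entries 1 library stood apart, as described below. DESeq2 called 3 members higher and 1 lower, where it called 16.2% of all genes, 8.37% higher and 7.78% lower. Of the 18 subunit names of another transcript type, edgeR called 0 and DESeq2 called 1, 3, or 16.7%, had an unadjusted p under 0.05, and their median log2 fold change was -0.02. Without RIPK4.KO replicate 2 edgeR called 1 of these higher and 5 lower, or 33.3% against 19.8% of all genes. The highest of these names with all libraries was NDUFS4, a complex I subunit of the NADH-oxidizing arm, at 0.37 with an adjusted p of 0.056.

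**Figure D2:**
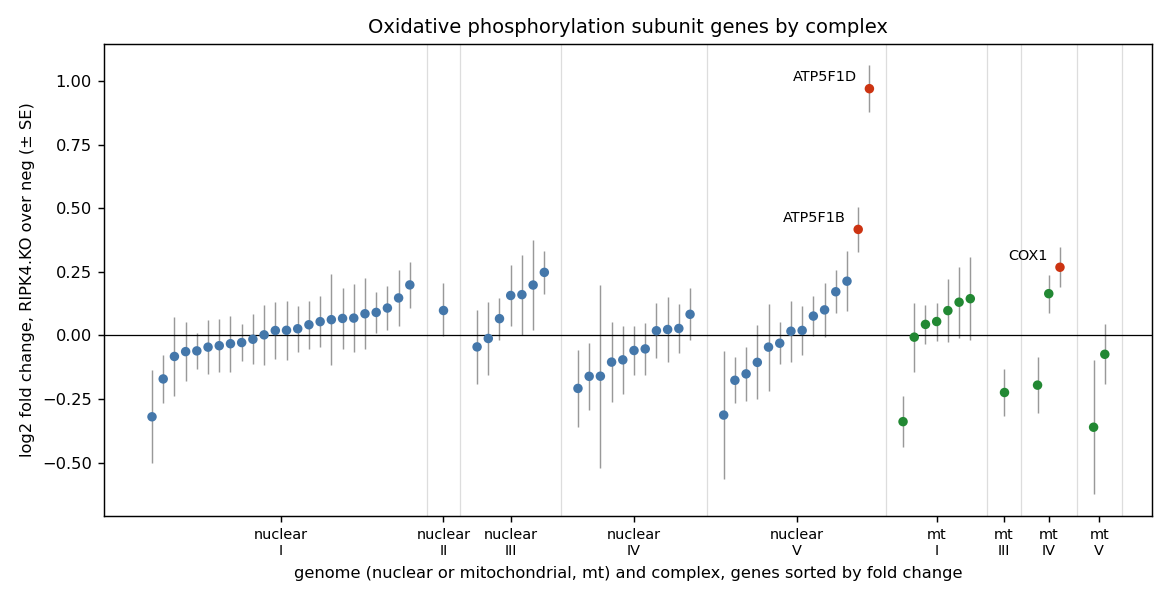
Log2 fold change of A375 RIPK4.KO over A375 neg with its standard error (y axis) for each tested subunit gene with a single copy, grouped by genome and complex and sorted within a group (x axis). Called genes are red and named, other nuclear genes blue and other mitochondrial genes green. COX7B2, called lower, is outside the axis and is not drawn. All genes but those named lie between -0.36 and 0.25.

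The largest rise among the called members was in ATP5F1D, which encodes the delta subunit of the ATP synthase, part of the central stalk between the c-ring and the catalytic head (chromosome 19, 1241746 to 1244826, plus strand, GRCh38 in GENCODE v29). Its normalized counts were 772, 779 and 699 in the control libraries and 1343, 1647 and 1417 in the knockout libraries. Every knockout library was above every control library, and the lowest of them was well clear of the highest control. The gene rose by 0.97 ± 0.09 on the log2 scale, or 1.96-fold, with an adjusted p of 0.00013 by edgeR's quasi-likelihood test, and without RIPK4.KO replicate 2 the change was 0.88. It remained called whichever library was left out. Of the 5 tested genes on each side of it, STK11, a kinase 13.3 kb away, also rose (1.20, adjusted p 0.0001), and GPX4, 135 kb away, fell (-0.87, adjusted p 0.00063). Its nearest neighbors, CBARP (0.72, adjusted p 0.083) and MIDN (0.31, adjusted p 0.32), each 3.7 kb away, were not called.

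ATP5F1B encodes the catalytic beta subunit of the ATP synthase (chromosome 12, 56638175 to 56646068, minus strand). It was the nuclear member with the most counts per kilobase, at 15233 in the controls. Its normalized counts were 27319, 28928 and 27793 in the controls and 33388, 42495 and 36325 in the knockout. The groups did not overlap, and RIPK4.KO replicate 2 was the highest of the 6 libraries. The log2 fold change was 0.42 ± 0.09 with an adjusted p of 0.012, and 0.32 with an adjusted p of 0.0018 without that replicate. The call was lost when A375 neg replicate 1 or A375 neg replicate 3 was left out, with adjusted p-values of up to 0.068. On 1 side of it, PTGES3 (0.52, adjusted p 0.00028), NACA (0.42, adjusted p 0.019), PRIM1 (0.48, adjusted p 0.0022) and ZBTB39 (0.44, adjusted p 0.0041) were higher as well, over 353 kb, and HSD17B6 (0.48, adjusted p 0.43) was not called. On the other side BAZ2A, 1.4 kb away, was at 0.05 with an adjusted p of 0.79, and the farthest of the 5 genes tested there, STAT2, fell (-0.81, adjusted p 0.011).

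None of the remaining head, stalk and peripheral subunit genes of complex V was called. ATP5F1A, the alpha subunit that pairs with beta in the catalytic head, was at 0.08 ± 0.08 (adjusted p 0.57), and the gamma subunit gene ATP5F1C at 0.02 ± 0.10 (adjusted p 0.91). ATP5F1E, the epsilon subunit that binds delta in the central stalk, was at -0.31 ± 0.25 with an adjusted p of 0.45. Its level was low, at 46.8 normalized counts per kilobase in the controls and 37.7 in the knockout. That was the lowest of the complex V members with a single copy, whose median in the controls was 3003. The stator genes ATP5PO and ATP5PB were at 0.21 and 0.17, and ATP5PF and ATP5PD at -0.18 and -0.15. The c-ring genes ATP5MC1 and ATP5MC3, which encode the same mature protein, were at -0.03 and 0.10. In all, 2 of the 15 nuclear complex V members tested were higher, 0 were lower by edgeR or at an unadjusted p under 0.05, DESeq2 called 2, and the median log2 fold change was 0.02.

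**Figure D3:**
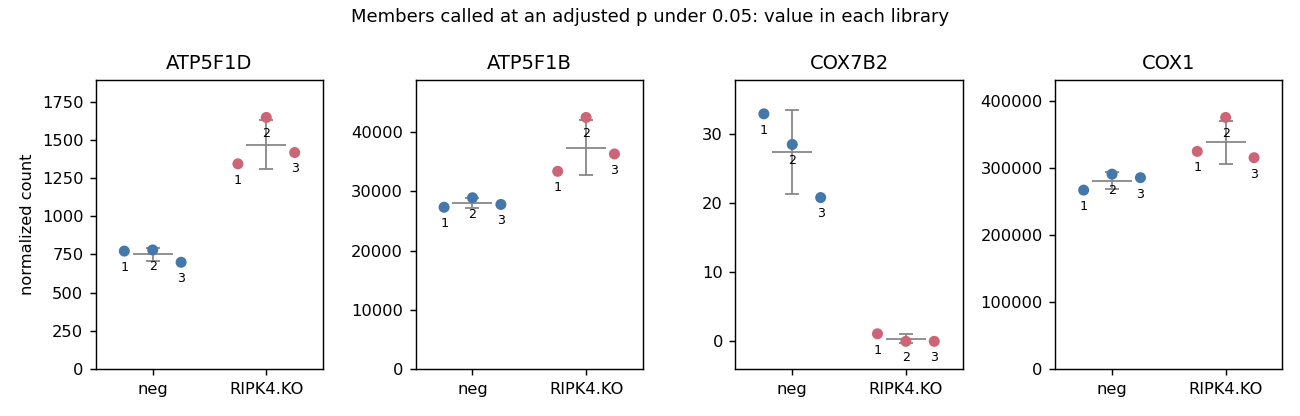
Normalized counts (y axis, linear) of the 4 called members in the 3 A375 neg libraries (blue) and the 3 A375 RIPK4.KO libraries (red), numbered by replicate, with mean and SD as gray bars. The groups do not overlap in any panel, and replicate 2 is the highest knockout library for ATP5F1D, ATP5F1B and COX1.

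COX7B2, a relative of the complex IV subunit COX7B that is known mainly from testis, fell to 1 count or none in the knockout libraries (chromosome 4, 46734827 to 46909235, minus strand). It had 33, 31 and 22 raw counts in the controls and 1, 0 and 0 in the knockout. No knockout library came near the lowest control library. Against a floor of 3 counts per knockout library, COX7B2 was at least 8.72-fold lower, with an adjusted p of 0.00063 by edgeR's quasi-likelihood test and of 0.0046 or less with any library left out. The floor covers counting error only. COX7B itself, the widely expressed form, had normalized counts of 1792, 1506 and 1884 in the controls and 1265, 2026 and 1526 in the knockout. These groups overlapped, and the log2 fold change was -0.10 ± 0.16 (adjusted p 0.70). Per kilobase, COX7B2 stood at 46.8 normalized counts in the controls and COX7B at 2855. Of the 10 tested genes around COX7B2, its nearest, GABRA2, a GABA receptor subunit gene 259.6 kb away, rose (1.16, adjusted p 0.018), and NIPAL1 (-0.56, adjusted p 0.024) and TXK (-2.15, adjusted p 0.00079) fell.

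The promoters of this pair are shown because COX7B2 was the only nuclear member called lower and COX7B is its close relative. Each window, from RefSeq on GRCh38.p14, runs from 250 bases before to 50 bases after the transcription start, 5′ to 3′ on the gene's strand, and capitals mark CG dinucleotides. The COX7B2 window is chr4:46909196-46909495 and the COX7B window chrX:77899218-77899517.
COX7B2: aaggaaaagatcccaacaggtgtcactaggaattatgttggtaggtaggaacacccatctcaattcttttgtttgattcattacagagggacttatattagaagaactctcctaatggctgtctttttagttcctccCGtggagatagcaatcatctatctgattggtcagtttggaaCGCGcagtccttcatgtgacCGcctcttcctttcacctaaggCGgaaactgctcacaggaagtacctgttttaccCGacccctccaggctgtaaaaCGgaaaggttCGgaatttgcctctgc
COX7B: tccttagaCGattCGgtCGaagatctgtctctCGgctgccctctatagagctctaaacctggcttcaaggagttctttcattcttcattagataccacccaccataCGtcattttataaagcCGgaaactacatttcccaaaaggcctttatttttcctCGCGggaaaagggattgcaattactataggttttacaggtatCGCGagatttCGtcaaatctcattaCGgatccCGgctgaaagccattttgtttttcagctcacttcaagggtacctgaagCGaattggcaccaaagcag
The COX7B2 window holds 8 CG dinucleotides and the COX7B window 14. Of the 64 nuclear genes, 51 have a window in the table, ATP5F1B and ATP5F1D not among them, and their median was 22, against 14 over 27305 promoters. No member window held fewer than that of COX7B2.

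Motifs of 3 factors long linked to respiratory genes were searched in these windows on both strands, and none of the 3 motifs contains another. The NRF1 motif (GCGCA, any base, then GCGC) was in 11 of 51 member windows, or 21.6%, against 6.28% of all promoters. CCGGAAG, bound by GABP and other ETS factors, was in 17 windows, or 33.3%, against 10.7%. AAGATGGC, the YY1 motif, was in 8 windows, or 15.7%, against 3.03%. At least 1 of them was in 58.8% of the member windows and 17.9% of all promoters, and neither COX7B2 nor COX7B held any. These matches describe letters in a window only.

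In complex I, which takes electrons from NADH, 27 nuclear members were tested and 0 were called by edgeR or by DESeq2. An unadjusted p under 0.05 was found for 3, where 30.0% of all genes tested had one. These 3 were NDUFS1 and the scaffold copies of NDUFS3 and NDUFA6, in each of which 1 library stood apart, as described below. The median log2 fold change was 0.02, with 15 above 0 and 12 below. Per kilobase the most abundant was NDUFB9, a subunit of the membrane arm, at 7832 normalized counts in the controls and 7844 in the knockout. Its normalized counts were 6081, 5842 and 5698 in the controls and 4992, 7127 and 5530 in the knockout, so the spread of the knockout libraries enclosed the controls. The log2 fold change of NDUFB9 was 0.0023 ± 0.12. Among the members with a single copy, NDUFB1 was the lowest at -0.32 ± 0.18 and NDUFA9 the highest at 0.20 ± 0.09, and neither was called. SDHB, the iron-sulfur subunit and the only complex II gene listed as mRNA, was at 0.10 ± 0.10.

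In complex III, which carries electrons from ubiquinol to cytochrome c, 0 of 9 nuclear members were called by edgeR. An unadjusted p under 0.05 was found for 2, CYC1 and UQCRC2, and the latter rests on 1 library. DESeq2 called 1. That gene was CYC1, cytochrome c1, with normalized counts of 4793, 5015 and 4734 in the controls and 5347, 6559 and 5365 in the knockout. The groups did not overlap, and replicate 2 was again the highest. Its log2 fold change was 0.25 ± 0.09 with an adjusted p of 0.084 by edgeR and 0.035 by DESeq2. UQCRH, the hinge protein, and UQCRHL, its intronless relative, share near-identical sequence, so that reads could be split between them. They were at 0.16 ± 0.12 and 0.20 ± 0.18, with UQCRHL at 157 normalized counts per kilobase in the controls against 10095 for UQCRH.

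In complex IV, cytochrome c oxidase, 1 of 12 nuclear members was called, COX7B2, and 8 of the 12 were below 0, with a median of -0.08. COX4I1, the ubiquitous form of the regulatory subunit 4 and the most abundant of them per kilobase, had normalized counts of 6251, 6373 and 6104 in the controls and 5251, 6994 and 5729 in the knockout. The knockout libraries lay on both sides of the controls, and the log2 fold change was -0.06 ± 0.10. The ubiquitous forms COX6A1, COX6B1 and COX8A were at -0.05, -0.16 and 0.02. NDUFA4, a complex IV subunit despite its name, was at 0.02 ± 0.13. NDUFA4L2, its hypoxia-inducible relative, was low at 19.0 to 42.0 normalized counts in the controls and 23.0 to 36.1 in the knockout, and was not called at -0.16 ± 0.36.

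Without RIPK4.KO replicate 2 the picture of the nuclear genes differed. Of the 64 members tested, 3 were then higher and 12 lower by edgeR's quasi-likelihood test, together 23.4%. Over all genes the called share was 19.8%, with 9.71% higher and 10.1% lower. The median log2 fold change of the members fell from 0.02 to -0.11. The same step took the median of all tested genes shorter than 1000 bases from 0.0007 to -0.068. It took that of the mitochondrial ribosomal protein genes from 0.08 to -0.03, and that of all genes tested from -0.0046 to -0.0007. The lower genes were COX7B2, COX7C, COX6B1 and COX4I1 of complex IV, NDUFB1, NDUFB10, NDUFB4 and NDUFS8 of complex I, UQCRQ of complex III, and ATP5MJ, ATP5PF and ATP5PD of complex V. Apart from COX7B2 their log2 fold changes ran from -0.56 (NDUFB1, adjusted p 0.014) and -0.43 (COX7C, adjusted p 0.0016) to -0.18 (NDUFS8, adjusted p 0.037). COX7C, one of the small complex IV subunits, had normalized counts of 3794, 3527 and 4030 in the controls and 2645, 4224 and 2956 in the knockout. Replicates 1 and 3 of the knockout were below every control library for this gene and replicate 2 was above them all. With the trend on gene length also removed, 12 members were called in place of 15, and the median of the members was -0.072. The share of all genes called was not counted under that setting. The higher genes were ATP5F1D, ATP5F1B and UQCRC2, and the last of these rests on 1 library.

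Some subunit genes appear in the table with a copy, or only as a copy, on an alternate or fix scaffold, and their reads could be split between the entries. This holds for 10 member names from 6 genes (NDUFS1, NDUFS3, NDUFA3, NDUFA6, UQCRC2 and ATP5IF1), of which 6 names were tested. In 5 of the 10, a single library held at least 5 times the normalized count of any other. NDUFS1, the largest subunit of complex I, had 575 raw counts in A375 neg replicate 2 and 44 to 76 in the others, and the scaffold copy of NDUFS3, a core subunit of the same arm, had 786 in that library and 15 to 27 in the others. UQCRC2, a core protein of complex III, had 462 raw counts in RIPK4.KO replicate 3 and 18 to 44 elsewhere. The copy of NDUFA6 had 308 in RIPK4.KO replicate 2 against 29 to 35, and a copy of NDUFA3 had 35 there and 0 in all others. Apart from COX7B2, these entries give the widest fold changes among the members on the log2 scale, from -3.47 to 2.54 with adjusted p-values of 0.094 and 0.16, and none was called. Of all names with at least 100 counts, the same was seen in 49 of 493 with copies, or 9.94%, and in 4 of 12917 listed once, or 0.031%.

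**Figure D4:**
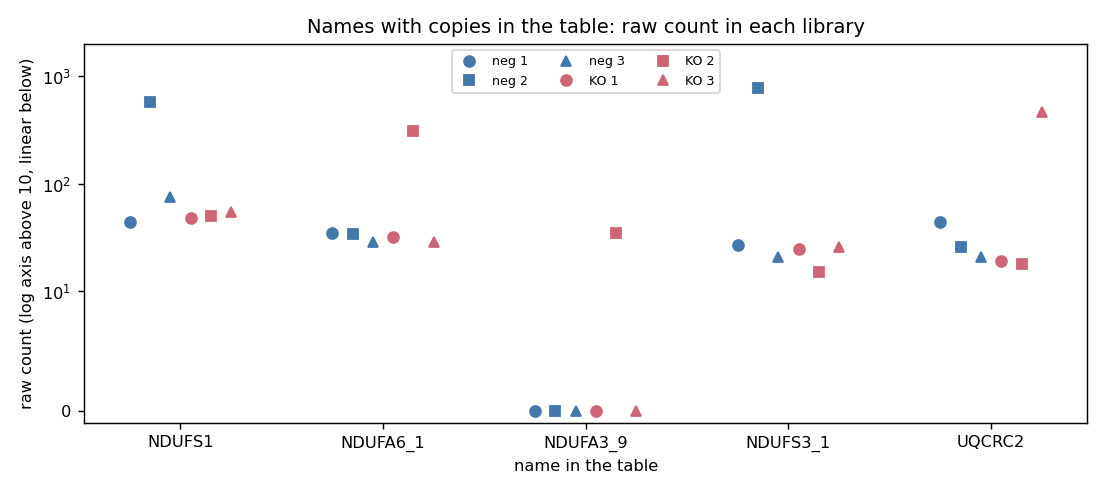
Raw counts (y axis, logarithmic above 10 and linear below) in each library of the 5 member names with copies in which 1 library stands apart (x axis), blue for A375 neg and red for A375 RIPK4.KO. The library that stands apart is A375 neg replicate 2 for NDUFS1 and NDUFS3_1, RIPK4.KO replicate 2 for NDUFA6_1 and NDUFA3_9, and RIPK4.KO replicate 3 for UQCRC2.

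The mitochondrial genome encodes 13 subunits, read from long transcripts that are cut into messages of 1 or 2 subunits, and their short poly(A) tails bear on how they are recovered by poly(A) enrichment. Together they took 4.08%, 4.40% and 3.74% of all counts in the controls and 4.41%, 4.31% and 4.02% in the knockout. The groups overlapped, at 4.07% ± 0.33 and 4.25% ± 0.20 (SD, n = 3). The nuclear members took 0.628%, 0.635% and 0.629% in the controls and 0.618%, 0.761% and 0.655% in the knockout, so that replicate 2 was the highest here as well.

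All 13 were tested, and 1 was called higher and 0 lower by edgeR, beside a background of 16.6%, while 3, or 23.1%, had an unadjusted p under 0.05 against 30.0% of all genes, and DESeq2 called 2. The called gene was COX1, the catalytic subunit of complex IV that holds the oxygen-reducing center (chrM, 5904 to 7445, plus strand). Its normalized counts were 266467, 290254 and 285026 in the controls and 324163, 374764 and 314766 in the knockout. Every knockout library was above the controls. The log2 fold change was 0.27 ± 0.08 and the adjusted p 0.0475 by edgeR's quasi-likelihood test, close to the threshold, and leaving out 1 library gave adjusted p-values from 0.019 to 0.23, under 0.05 without RIPK4.KO replicate 2 and not without any of the other 5 libraries. DESeq2 gave an adjusted p of 0.0051.

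ND5, the complex I subunit at the far end of the membrane arm, fell just short of the threshold in the other direction. Its normalized counts were 54251, 56426 and 44181 in the controls and 44584, 39964 and 37883 in the knockout. The groups met between A375 neg replicate 3 and RIPK4.KO replicate 1. The log2 fold change was -0.34 ± 0.10 with an adjusted p of 0.051 by edgeR and 0.0048 by DESeq2, and it passed without A375 neg replicate 3 (0.018) or RIPK4.KO replicate 1 (0.038). CYTB, cytochrome b of complex III, was at -0.22 ± 0.09 (adjusted p 0.14, or 0.043 without A375 neg replicate 3), with 77896, 85555 and 66273 normalized counts in the controls and 67188, 66850 and 62672 in the knockout.

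The mitochondrial genes of complexes I and IV lay on both sides of 0. In complex IV, COX3 was at 0.16 ± 0.08 (adjusted p 0.18) and COX2, the subunit that receives electrons from cytochrome c, at -0.20 ± 0.11 (adjusted p 0.27). The ratio of raw COX1 to COX2 counts was 3.72, 3.64 and 4.62 in the controls and 5.20, 5.43 and 5.74 in the knockout, without overlap, a pair chosen after the values were seen. In complex V, ATP6 was at -0.07 ± 0.12 and ATP8 at -0.36 ± 0.26. Of the complex I genes other than ND5, ND1, ND2, ND3, ND4 and ND6 were at 0.04, 0.10, 0.13, 0.05 and 0.14, and ND4L at -0.01, with adjusted p-values of 0.58 or more. The sign of ND2, ND3, ND4L and ATP6 turned when 1 library was left out. ND6, the one subunit gene on the light strand, lies next to ND5, and the ratio of raw ND6 to ND5 counts was 0.175, 0.132 and 0.137 in the controls and 0.223, 0.208 and 0.189 in the knockout. This ratio was not planned and takes in the shift of ND5 given above. ND6 alone had an adjusted p of 0.60 by edgeR. The ribosomal RNA genes RNR1 and RNR2 of the same genome were at -0.09 ± 0.11 and 0.18 ± 0.11 and were not called.

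Per kilobase, COX1 was the most abundant in the controls at 181960 normalized counts, followed by ATP6 (119350), COX3 (115941) and COX2 (103844), and the libraries of the last 3 overlapped. ND2 (91511), ND1 (90438) and ND4 (85975) came next and overlapped as well. CYTB (67112), ND3 (51194), ATP8 (45785), ND4L (38325) and ND5 (28488) followed, and ND6 was the lowest at 14615. ATP8 and ATP6 are read from 1 message and share 46 bases, shown because reads on them can be given to either gene. The stretch chrM:8515-8584 on the plus strand, from the GENCODE v29 transcripts, has the shared bases 8527 to 8572 in capitals, from the ATP6 start codon to the ATP8 stop codon.
ATP8 and ATP6: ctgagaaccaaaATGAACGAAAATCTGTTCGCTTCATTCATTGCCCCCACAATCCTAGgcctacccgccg
The ratio of raw ATP8 to ATP6 counts was 0.152, 0.0997 and 0.0964 in the controls and 0.0974, 0.121 and 0.0672 in the knockout, with overlap of the groups. ND4L and ND4 share 7 bases in the same way.

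**Figure D5:**
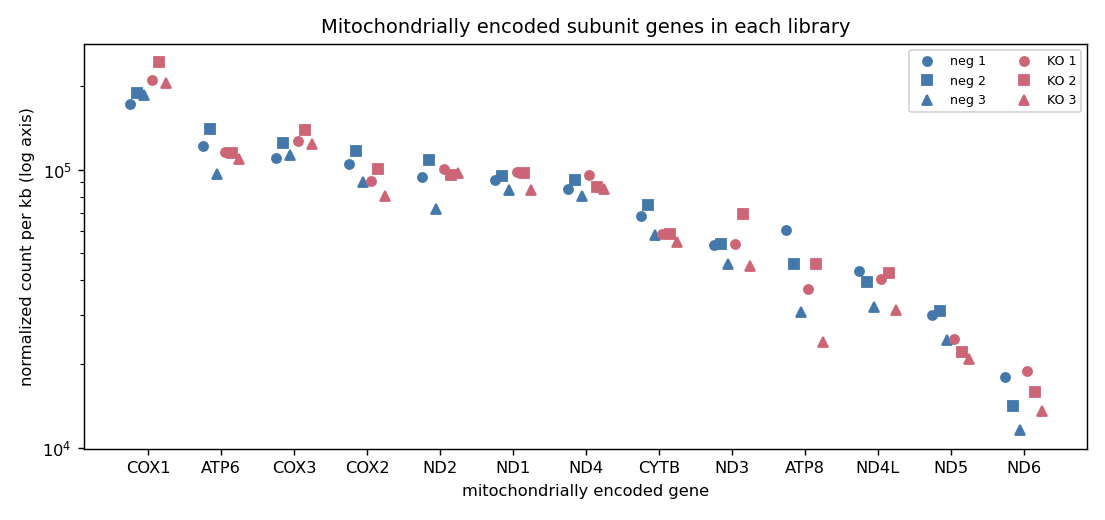
Normalized counts per kilobase (y axis, log scale) of the 13 mitochondrially encoded genes (x axis, ordered by the A375 neg mean) in each library, blue for A375 neg and red for A375 RIPK4.KO. COX1 is the only gene whose knockout libraries all lie above the controls, and ND6 is the lowest in every library.

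The genes that build and feed the chain were counted from lists written with earlier results of these data known, and the called share of each list was below that of all genes tested, 16.6%. Of 55 assembly factors tested, 2 were higher and 1 was lower: UQCC3, which helps to assemble complex III (0.48 ± 0.13, adjusted p 0.037), ECSIT, of complex I assembly (0.33 ± 0.10, adjusted p 0.049), and COX15, which makes the heme A of complex IV (-0.28 ± 0.06, adjusted p 0.016). These 3 are 5.45% of the list, whose median log2 fold change was 0.05. UQCC3 lost its call whichever library was left out, and with any of the control libraries left out no assembly factor was called. Without RIPK4.KO replicate 2, 1 was higher and 6 were lower, or 12.7% against 19.8% of all genes.

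Among 42 genes of mitochondrial gene expression, 3 were higher and 0 lower by edgeR, or 7.14% higher against 8.4% of all genes. An unadjusted p under 0.05 was found for 8 of them, or 19.0%, all higher, against 15.1% of all genes in that direction, and DESeq2 called 4. In all, 35 were above 0, with a median log2 fold change of 0.08 against -0.0046 for all genes. In 15 of the 42 the knockout libraries all lay above the controls and in 0 all lay below, against 18.7% and 17.8% of all genes. MTIF2, a translation initiation factor of mitochondria, was at 2105, 2006 and 2251 normalized counts in the controls and 2877, 2928 and 2576 in the knockout. All of its knockout libraries were above the controls (0.40 ± 0.07, adjusted p 0.0055). POLRMT, the RNA polymerase of the mitochondrial genome (0.32 ± 0.07, adjusted p 0.0097), and TOP1MT, its topoisomerase (0.32 ± 0.08, adjusted p 0.028), rose too. MTIF2 remained called with any library left out, while POLRMT lost its call without A375 neg replicate 1 and TOP1MT without any control or without RIPK4.KO replicate 1. Without RIPK4.KO replicate 2 the list had 4 genes higher, or 9.52% against 9.71% of all genes, 0 lower and a median of 0.08. Of 57 mitochondrial ribosomal protein genes, edgeR called 0, with 9, or 15.8%, at an unadjusted p under 0.05 against 30.0% of all genes, and DESeq2 called 3, all higher. Without RIPK4.KO replicate 2, edgeR called 1 of these higher and 7 lower, or 14.0% against 19.8% of all genes.

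Of 35 genes of the TCA cycle, pyruvate dehydrogenase and the electron carriers, PDSS1, of ubiquinone synthesis, was higher (0.24 ± 0.07, adjusted p 0.047) and OGDH, a subunit of the 2-oxoglutarate dehydrogenase complex, lower (-0.29 ± 0.07, adjusted p 0.023), together 5.71% of the list. Without RIPK4.KO replicate 2, PDSS1 was higher and OGDH, COQ8B, of ubiquinone synthesis, and ETFB, a subunit of the electron transfer flavoprotein, were lower, or 11.4% against 19.8% of all genes. Of 21 regulators of mitochondrial biogenesis tested, PPARD (0.36 ± 0.11, adjusted p 0.046) and HIF1A (0.29 ± 0.07, adjusted p 0.027) were higher. MITF, the melanocyte lineage factor, was lower, with 500, 405 and 507 normalized counts in the controls and 356, 301 and 381 in the knockout (-0.44 ± 0.13, adjusted p 0.045). All of its knockout libraries lay below the controls. With MITF, 14.3% of the regulators were called, and without RIPK4.KO replicate 2 PPARD and HIF1A were higher and 0 were lower, or 9.52% against 19.8% of all genes. Each of these 5 genes lost its call with at least 1 library left out, and MITF passed only without A375 neg replicate 2 (0.037), with 0.074 without RIPK4.KO replicate 2. None of the genes named from these lists reached 1.5-fold.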

How the data were processed

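Raw counts per gene for 6 poly(A)-enriched, strand-specific libraries were deposited by the authors as whole numbers, without normalization. Submitters' processing notes name cutadapt, FastQC, HISAT2, HTSeq, DESeq2 and GRCh38.p13, without versions, and the strand setting of the counting is not given in the sources used here. The authors' normalized counts, fold changes and p-values in the same table were not used. The comparison was run with edgeR 4.0.16 under R 4.3.3, using TMM factors, the filterByExpr filter and the quasi-likelihood test, and p-values were adjusted by Benjamini-Hochberg over 14443 genes. A gene was called at an adjusted p under 0.05. Normalized counts are raw counts divided by the TMM-scaled library size relative to the mean, and levels per kilobase use the median length of protein-coding transcripts in GENCODE v29. Standard errors were derived from the fold change and the F statistic.

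The members and gene lists were chosen with earlier results of these data known. Named genes were RIPK4, the mitochondrially encoded members, called nuclear members, the most abundant per kilobase and the lowest adjusted p in each complex, paired isoforms, and up to 5 called genes of each other list. Other members and chromosomal neighbors were named after their values were seen. Alternatives were DESeq2 1.42.0, its size factors, other filters, mitochondrial genes left out of library sizes, copies summed, a 1.5-fold minimum, the gene length trend removed, the replicate number as a block and each library left out. Further alternatives, chosen after seeing the data, were any transcript type, no members with copies, and the length trend removed without RIPK4.KO replicate 2 or with the block. The fits were tested on simulated data. Python 3.11.15 and matplotlib 3.10.9 were used.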

Additional observations from a re-analysis of the deposited data

How the results depend on the processing

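The number of nuclear members called stayed within 1.5 times of 3 except when a library was left out, from 2 to 15 (15 without RIPK4.KO replicate 2), and with the length trend also removed, 12. For the mitochondrially encoded members, 1 as reported, the number called was 2 with DESeq2, 0 with no filter, 2 with the length trend removed, 0 at 1.5-fold, and 0 to 2 with a library left out. Assembly factors gave 7 with the length trend removed, 0 at 1.5-fold and 0 to 7 with a library left out. Mitochondrial gene expression gave 0 at 1.5-fold and 1 to 4 with a library left out. Mitochondrial ribosomal proteins, 0 as reported, gave 3 with DESeq2, 1 with mitochondrial genes left out of library sizes, 1 at a mean of 50 counts, 4 with the length trend removed, 1 with copies summed and 0 to 8 with a library left out. TCA cycle and carrier genes gave 1 with DESeq2, 1 with no filter, 0 at 1.5-fold and 0 to 4 with a library left out. Regulators gave 1 with no filter, 5 with the length trend removed, 0 at 1.5-fold and 0 to 2 with a library left out. Over all genes, 2403 as reported, 2756 were called with the length trend removed, 2644 with DESeq2 and 2246 with no filter. The count was 2102 at a mean of 50 counts, 2430 with mitochondrial genes left out of library sizes and 2458 with copies summed. It was 1306 at 1.5-fold and 1526 to 2952 with a library left out. Both medians and the mitochondrial share moved by less than the spread between libraries under every alternative run. For the nuclear median that spread, an SD of 0.15, takes in RIPK4.KO replicate 2, so it cannot judge the removal of that library. The nuclear median ran from -0.11 without RIPK4.KO replicate 2 to 0.10 without RIPK4.KO replicate 1. Both medians were below 0 without A375 neg replicate 3 or without RIPK4.KO replicate 2. The cause of these changes was not tested.

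Signs turned with a library left out for ND3 (from -0.044 to 0.27, negative without RIPK4.KO replicate 2), ND2 (from -0.046 to 0.24, negative without neg replicate 3), ATP6 (from -0.20 to 0.057, positive without neg replicate 2) and ND4L (from -0.12 to 0.12, positive without neg replicate 1, neg replicate 2 or RIPK4.KO replicate 3). COX7B2 has no value at a mean of 50 counts.

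Samples of both groups share replicate numbers. Same-numbered libraries correlated at 0.08, 0.04 and -0.01 in their deviations from the group means, and the other pairs at -0.10 to 0.07. Whether same-numbered libraries shared a batch is not stated, and these values cannot decide it. With the replicate block, 2 mitochondrially encoded members were called (3 with the length trend removed too), 5 assembly factors, 2 mitochondrial ribosomal proteins and 4 TCA cycle genes. Over all genes 2549 were called with the block, against 2403 as reported. The number over all genes with the block and the length trend removed together was not counted.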
